A study of Mus musculus with 10 samples.

Results

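The genes described here are 41 mouse genes listed under glutathione S-transferases and NRF2 detoxification. They comprise 19 glutathione S-transferases (GSTs) and 22 genes for the transcription factor NRF2, its regulators and partners, and detoxification or protein repair enzymes. They were listed by symbol, matched by Ensembl identifier to the 55359 genes of the deposited table, and used if their mean was at least 1 normalized count over the 10 tumors. All 41 passed, and all 41 had values above 0 in every tumor. The least abundant was Gsta2, with a mean of 14.03 normalized counts, so that no listed gene lay outside the threshold.

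RNA was sequenced from 5 normoglycemic tumors (CTRL, columns N1, N2, N4, N5 and N6) of mice given regular water and from 5 hyperglycemic tumors (D30, columns T1, T2, T4, T5 and T7) of mice given 30% dextrose water for 14 days. Both groups carried the same luciferase-expressing murine pancreatic cancer line, KPC K8484 (with Pdx1-Cre and Trp53 R172H/+ among its alleles), injected into the pancreas of immunocompetent C57BL/6 mice (C57BL/6J by the methods) that were 10 weeks old. As 1 cell line it stands for a single tumor genotype, and male and female mice were used in equal numbers according to the methods. Since the numbers in the column names are not those of the labelled replicates, columns were placed in groups but not tied to animals, and p values measure the spread between these tumors.

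NRF2, encoded by Nfe2l2, pairs with a small Maf protein (MafF, MafG or MafK) on antioxidant response elements and switches on genes that reduce, conjugate and export reactive compounds. KEAP1 holds NRF2 in the cytoplasm and passes it to the proteasome, so that NRF2 activity is set largely on the protein, and BACH1 competes with NRF2 for the same elements. GSTs join glutathione to electrophilic compounds, and the NRF2 program is known to be active in pancreatic cancer.

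The recovered reads numbered 29192261 to 42122304 per tumor. Tumor T4 stood apart from the other 9. It held 841 reads of Y-linked genes against 0 in every other tumor. The equal numbers of male and female mice given in the methods are thus not seen in these columns, and the labels do not give the sex of each host. Short-exon genes (2730 bases or less) of T4 deviated from the mean of all tumors by a median of 0.56 on the log2 scale, and its long-exon genes (6785 bases or more) by -0.43. The 41 genes had a median deviation of 0.92 in T4, against -0.32 to 0.17 in the other 9 tumors, and T4 was the highest tumor for 21 of the 41 genes and the lowest for 5. Values without T4 are therefore given beside those that it moves most. The part of T4 in the group differences beyond these values was not tested.

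Cell type markers differed between the groups as well. The summed level of 8 ductal and tumor epithelial markers was 209950 to 335623 normalized counts in CTRL and 341449 to 476102 in D30, without overlap, and 7 of its 8 genes were higher, with none past the adjusted threshold of limma and 6 higher and 1 lower at an unadjusted p under 0.05. All 8 fibroblast markers were lower, 5 of them at an unadjusted p under 0.05 and none past the adjusted threshold, and summed to 78585 to 138359 (CTRL) and 29990 to 104760 (D30). All 7 islet markers were lower and 4 passed the test, with sums of 17.7 to 1496 (CTRL) and 0 to 83.6 (D30) and Iapp at 0 in every D30 tumor. Of 9 acinar markers tested, 8 were lower, 4 at an unadjusted p under 0.05 and none past the adjusted threshold, with 276 to 63877 (CTRL) and 144 to 6213 (D30). Endothelial markers gave 10874 to 18120 (CTRL) and 5399 to 9713 (D30), 5 of 6 being lower and Cdh5 passing the test. The hepatocyte list was lower in 5 of 6 genes tested, 2 of which passed (Alb and Ttr), with sums of 1508 to 3577 and 527 to 1256. Macrophage markers were lower in 6 of 7 genes, with Csf1r passing, and summed to 18392 to 30798 (CTRL) and 9629 to 26593 (D30). No gene of the other lists passed the adjusted threshold of limma. At an unadjusted p under 0.05, 4 intestinal markers were higher and 1 lower, 3 neutrophil markers were higher, and 2 T cell markers were lower. All 6 T cell markers were lower, without a call, and their sums of 261 to 527 (CTRL) and 160 to 255 (D30) did not overlap. B cell markers were lower in 4 of 5 genes (297 to 3167 in CTRL and 83.3 to 2119 in D30), again without a call. Adipocyte markers were lower in 5 of 6 genes (2067 to 6637 in CTRL and 2150 to 3296 in D30), and none was called. Sums in CTRL and D30 were 32905 to 73822 and 68213 to 232625 for intestinal epithelium (4 of 8 higher), 635 to 3129 and 749 to 15446 for neutrophils (6 of 6 higher), and 4852 to 7307 and 4128 to 187896 for erythroid cells (5 of 6 higher, the highest sum in T5). In these bulk tumors, fewer cells of a type and less RNA per cell cannot be told apart, and the part of cell makeup in the differences below was not tested.

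Most of the 41 genes were somewhat higher with dextrose water and few passed the test. Of the 41 genes 27 were higher and 14 lower (22 and 19 with library-size scaling), and their median log2 fold change, D30 minus CTRL on log2 of the normalized count plus 1, was 0.25, or 0.18 without T4. Over all 24560 genes tested, 11126 were higher and 13434 lower, and the median was -0.06. With limma and an adjusted p under 0.05, 3 of the 41 were higher (Mafk, Esd and Gstt3), against 1.4% of all genes tested, and 0 of the 41 were lower, against 1.36%. At an unadjusted p under 0.05, 13 of the 41 were higher, against 7.79% of all genes, and 2 were lower (Ephx1 and Gstk1), against 9.54%. In 4 genes (Maff, Mafk, Msra and Gstt3) every D30 tumor lay above every CTRL tumor, against 2.87% of all genes, and in 0 genes did every D30 tumor lie below, against 3.32%. Without T4, 5 genes were called higher (Mafk, Esd, Gstt3, Cbr1 and Msra), against 3.32% of all genes, and 1 lower (Nqo2), against 3.11%. DESeq2 on the recovered reads called 9 of the 41 higher (the 3 above with Maff, Cbr1, Msra, Gstt1, Gstt2 and Gsto1), against 5.41% of all genes, and 0 lower, against 3.86%, Ptgr1 having no adjusted p there. edgeR called 4 higher (Maff, Mafk, Esd and Gstt3), against 2.67% of all genes, and 0 lower, against 1.46%. At a minimum mean of 10, which all 41 passed, limma called 384 of 17361 genes higher and 303 lower. Of the 41 genes it then called 4, all higher (Mafk, Esd, Msra and Gstt3).

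**Figure D1:**
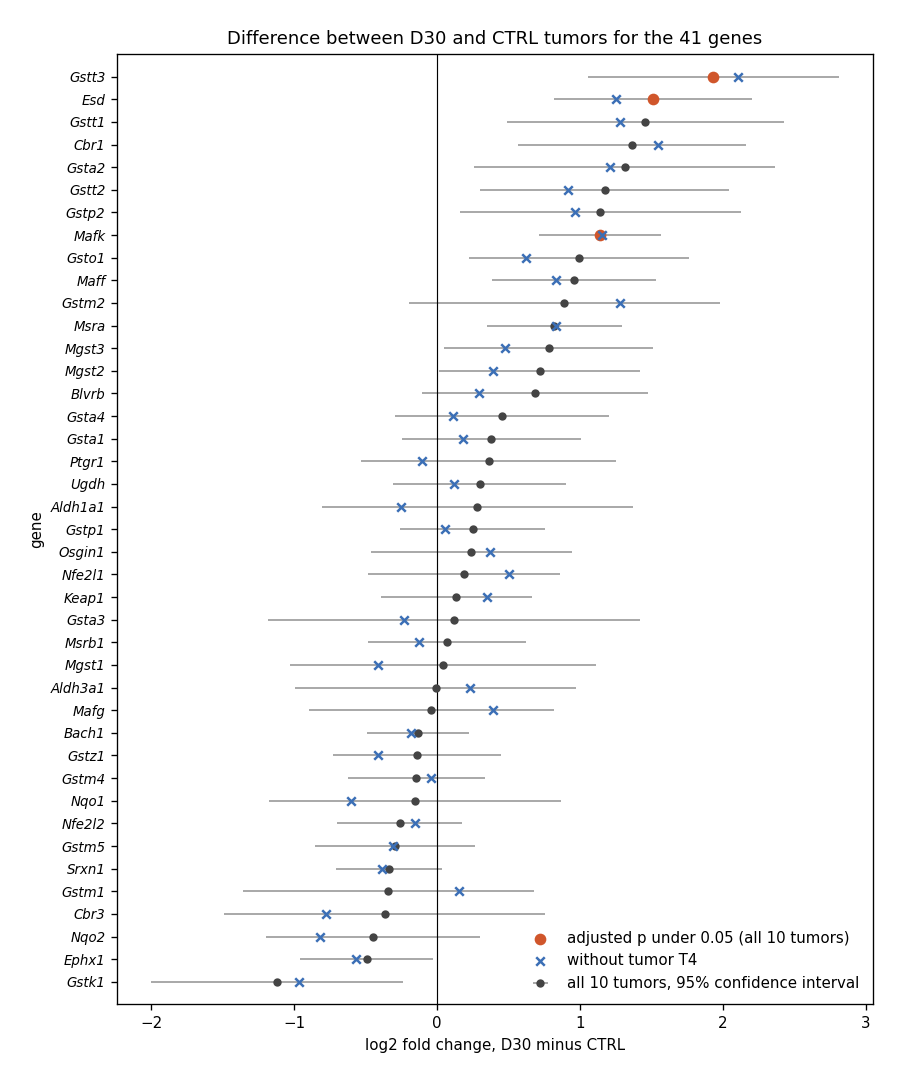
Log2 fold change (D30 minus CTRL, x axis) of the 41 genes (y axis) with 95% confidence intervals from limma over 10 tumors, called genes in orange and values without tumor T4 as blue crosses. Gstt3 (1.93), Esd (1.51) and Mafk (1.14) are the called genes, and 27 of the 41 points lie to the right of 0.

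The NRF2 transcript itself did not pass the test. Nfe2l2 gave 4802, 4720, 4632, 5037 and 4446 normalized counts in the CTRL tumors and 5410, 4848, 2922, 2910 and 4286 in the D30 tumors. The groups overlapped, and T4 and T5 were the low tumors (log2 fold change -0.26 with a 95% confidence interval of -0.70 to 0.18, adjusted p = 0.552 with limma). Keap1, the adaptor that marks NRF2 for degradation, gave 1692, 2657, 2590, 2631 and 2599 in the CTRL tumors and 2863, 3006, 1441, 3015 and 3401 in the D30 tumors. Apart from T4, every D30 tumor exceeded every CTRL tumor, and the log2 fold change was 0.14 (-0.39 to 0.66, adjusted p = 0.825 with limma) with T4, -0.09 with library-size scaling, and 0.35 without T4 (adjusted p = 0.216). An antisense gene, Gm16754, covers 10.9% of the Keap1 exon bases. Bach1, the competing repressor, gave 2140, 2140, 1864, 2317 and 1896 in the CTRL tumors and 1801, 1998, 2172, 2024 and 1506 in the D30 tumors, which overlapped (-0.13, -0.49 to 0.23, adjusted p = 0.736 with limma). Nfe2l1, the related factor NRF1, had a mean of 6364 ± 1393 (SD, n = 5) among CTRL and 7644 ± 2639 (SD, n = 5) among D30 tumors, with a log2 fold change of 0.19, of -0.03 with library-size scaling, and of 0.50 without T4 (adjusted p = 0.121 with limma).

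The small Maf partners differed among themselves. Mafk gave 1265, 1184, 1540, 1438 and 1437 normalized counts in the CTRL tumors and 2464, 2859, 2853, 4648 and 2635 in the D30 tumors. The groups did not overlap, and T5 was the highest. Mafk was 2.20-fold higher in D30 tumors (log2 fold change 1.14, SE 0.20, 95% confidence interval 0.71 to 1.56, adjusted p = 0.00863 with limma). It passed the test with each tumor left out in turn and under every other setting tried. Mafk (GRCm38, chr5:139791513-139802653) shares 169 bases (4.33%) of its exons with Tmem184a on the opposite strand, which was also called higher (log2 fold change 2.34, adjusted p = 0.00133 with limma). The libraries were strand-specific, but whether reads were counted by strand is not given in the sources used here, so that reads in this overlap cannot be told apart. Within 500 kb of Mafk, 13 of 14 protein-coding neighbors at a mean of 10 normalized counts or more were higher. Their median log2 fold change was 0.39, and Tmem184a alone was called by limma. In the wider bin from 130 to 140 Mb, 79 of 160 genes were higher, with a median of -0.003. Of the 160 genes, 5 were called higher (3.1%), Mafk and Tmem184a among them. Maff gave 2015, 1829, 2310, 2005 and 1671 in the CTRL tumors and 2688, 2871, 5406, 6718 and 2828 in the D30 tumors. These groups did not overlap either, with T4 and T5 well above the other D30 tumors (0.96, 0.39 to 1.53, adjusted p = 0.0754 with limma and 0.0496 with edgeR). Mafg had means of 4052 ± 1022 (SD, n = 5) among CTRL and 4338 ± 1779 (SD, n = 5) among D30 tumors, and T4 was the lowest of all tumors at 1161. Its log2 fold change was -0.04 with T4, 0.11 by edgeR, and 0.39 without T4 (adjusted p = 0.278 with limma).

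**Figure D2:**
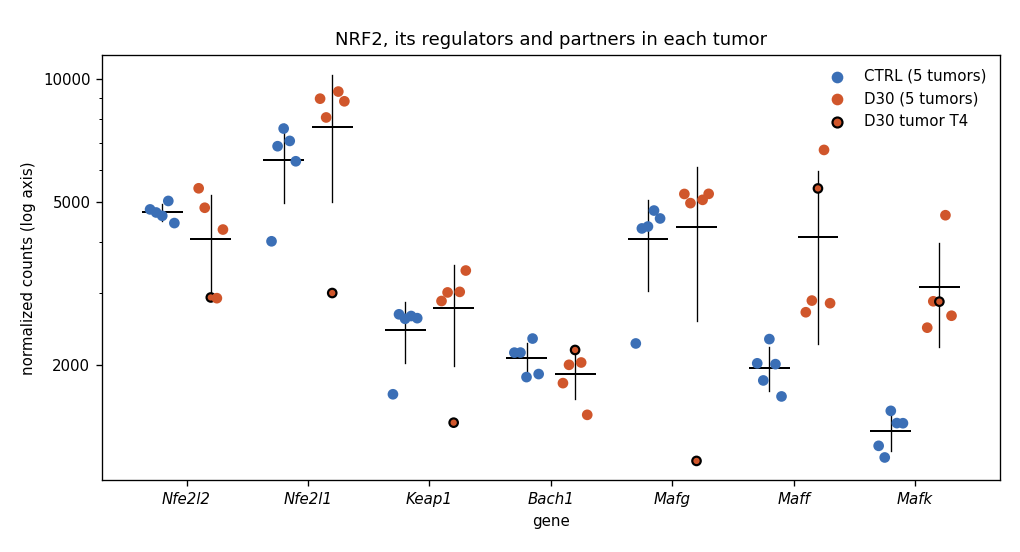
Normalized counts (log axis) of NRF2, its regulators and its partners in each of the 5 CTRL (blue) and 5 D30 (orange) tumors, with the mean and SD as black lines and tumor T4 outlined. Mafk and Maff are separated between groups, and in Nfe2l1, Keap1 and Mafg tumor T4 is the lowest D30 tumor.

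The letters upstream of these genes are shown because the products of Nfe2l2 and the Maf genes bind antioxidant response elements. RefSeq promoter windows (GRCm38.p6, 250 bases before to 50 after the start site) were on hand for 37 of the 41 genes. The element core TGACNNNGC, searched on both strands, occurred in 9 of the 37 (24.3%) and in 13.99% of 27025 genes with such a window. The 9 were Nfe2l2, Mafk, Maff, Mafg, Srxn1, Ugdh, Gsta3, Gstm5 and Mgst1. The first 4 lines below, read 5′ to 3′ on the gene's strand, hold the core in capitals. The other 3 hold in capitals the related letters TGAGTCAGC, which contain the AP-1 site TGAGTCA and are no match to the core. These letters were searched after the sequences had been seen and occurred in 4 of the 37 genes (Srxn1, Osgin1, Gstp1 and Gstp2) and in 0.481% of genes with a window.
Nfe2l2, chr2:75704875-75704913, minus strand: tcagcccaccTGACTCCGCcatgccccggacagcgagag
Maff, chr15:79346489-79346537, plus strand: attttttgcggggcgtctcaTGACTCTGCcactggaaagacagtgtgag
Mafg, chr11:120633741-120633789, minus strand: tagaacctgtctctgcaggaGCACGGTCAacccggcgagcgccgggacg
Mafk, chr5:139791503-139791535, plus strand: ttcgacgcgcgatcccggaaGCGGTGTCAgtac
Srxn1, chr2:152105459-152105507, plus strand: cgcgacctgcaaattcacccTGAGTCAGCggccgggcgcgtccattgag
Gstp1, chr19:4037958-4038006, minus strand: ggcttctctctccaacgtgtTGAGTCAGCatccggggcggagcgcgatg
Gstp2, chr19:4042282-4042330, minus strand: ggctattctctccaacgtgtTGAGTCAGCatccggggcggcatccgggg

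In Mafg and Mafk the core lies on the opposite strand of the gene. Mafk, called higher, Maff, separated between groups, and Mafg and Nfe2l2, which did not pass, all held the core, and no match was found in the windows of Nfe2l1, Keap1 and Bach1, which did not pass. Srxn1 held both kinds of letters, without overlap and with the core ending past its start site. Its log2 fold change was -0.33, while Gstp1 and Gstp2, whose windows are nearly the same, had 0.25 and 1.14. A match of letters is a description of the sequence and was not measured as binding.

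The classic NRF2 reporter gene Nqo1, encoding a quinone reductase, was scarcely expressed. It gave 81.0, 41.2, 64.0, 62.0 and 44.5 normalized counts in the CTRL tumors and 45.2, 28.6, 179, 33.2 and 43.7 in the D30 tumors. T4 was the highest and T2 the lowest tumor, and the groups overlapped (log2 fold change -0.15, -1.17 to 0.87, adjusted p = 0.903 with limma). It was 0.19 on the log2 scale by edgeR and -0.60 by limma without T4 (adjusted p = 0.309). Per kilobase of exon, Nqo1 had a mean level of 40.1 normalized counts against 270 for Nqo2 and 1159 for Nfe2l2. Nqo2, the related quinone reductase, gave 1572, 1081, 1122, 1065 and 1036 in the CTRL tumors and 591, 732, 2398, 556 and 778 in the D30 tumors. The other 4 D30 tumors lay below every CTRL tumor, and T4 lay above all. The log2 fold change was therefore -0.45 with T4 (adjusted p = 0.551 with limma) and -0.82 without it (adjusted p = 0.0167). Exons of Serpinb6a on the opposite strand cover 18.9% of the Nqo2 exon bases, and Serpinb6a was likewise highest in T4, at 68699 against 6987 to 17151 in the other 9 tumors.

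Of the 11 reductases, hydrolases and dehydrogenases, 6 were higher and 5 lower, and Esd alone passed the adjusted threshold of limma. Esd encodes S-formylglutathione hydrolase, which releases formate from S-formylglutathione in the breakdown of formaldehyde. It gave 5723, 2340, 3334, 2293 and 2782 normalized counts in the CTRL tumors and 8824, 5679, 18156, 7593 and 7779 in the D30 tumors. The groups overlapped only between N1 and T2, and T4 was the highest. Esd was 2.85-fold higher in D30 tumors (log2 fold change 1.51, SE 0.32, 0.82 to 2.21, adjusted p = 0.0243 with limma), and 1.25 on the log2 scale without T4 (adjusted p = 0.0102). The call was lost without N2, N4, N5, N6 or T7, one at a time, with adjusted p values of up to 0.0841. Esd lies on chromosome 14 (GRCm38, chr14:74732297-74750765), and the values of its surroundings depended on the window. Of its 4 expressed neighbors within 500 kb, 2 were higher and 0 were called by limma, with a median log2 fold change of 0.13. Between 70 and 80 Mb lay 72 genes at a mean of 10 normalized counts or more, Esd included. Of these, 56 were higher in D30 tumors and 14 were called higher (19.4%, Esd among them), with a median log2 fold change of 0.57. Of 240 such bins of 10 Mb with at least 20 genes, this one had the highest median and the highest share called. The median deviation of its genes from their mean over all tumors was -0.45 to 0.02 across CTRL tumors and 0.05 to 0.51 across D30 tumors, T4 being the lowest of these. The genes of the bin were examined after the values of Esd had been seen.

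Cbr1, a carbonyl reductase, gave 349, 150, 96.8, 89.4 and 118 normalized counts in the CTRL tumors and 432, 355, 219, 373 and 492 in the D30 tumors. N1 was the only CTRL tumor within the D30 range, and T4 the lowest D30 tumor (1.36, 0.56 to 2.16, adjusted p = 0.0710 with limma, and 1.54 with 0.0209 without T4). Of the 10 limma fits with 1 tumor left out, 2 called Cbr1 (without N1 and without T4), and adjusted p values reached 0.178. Its neighbor Cbr3 had 54.8 ± 28.8 (SD, n = 5) among CTRL and 49.2 ± 42.1 (SD, n = 5) among D30 tumors, with a log2 fold change of -0.37, or -0.77 without T4. Ephx1, the microsomal epoxide hydrolase, gave 1464, 1635, 1149, 2441 and 1644 in the CTRL tumors and 933, 1261, 1403, 1113 and 1090 in the D30 tumors. D30 tumors tended to the lower end with overlap, and the difference did not pass (-0.49, -0.95 to -0.03, adjusted p = 0.257 with limma). For Ptgr1 (prostaglandin and alkenal reduction), Blvrb (biliverdin reductase B) and Aldh1a1 (retinal and aldehyde oxidation), T4 was the highest of all tumors at 5209, 4084 and 9113, and the log2 fold changes of 0.36, 0.68 and 0.28 were -0.11, 0.29 and -0.25 without T4. Aldh3a1, an aldehyde dehydrogenase, ranged from 629 to 1821 in CTRL and from 555 to 3296 in D30 tumors (-0.01, 0.25 by edgeR, and 0.23 without T4). Ugdh, which makes UDP-glucuronate for glucuronidation, stayed within 9839 to 11246 in CTRL tumors and spread from 7605 to 21201 in D30 tumors, with T4 and T5 the high ones (0.30, adjusted p = 0.635 with limma, and 0.12 without T4).

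The genes of protein repair and Osgin1 did not move together. Msra, which reduces oxidized methionine in proteins, gave 350, 236, 344, 228 and 271 normalized counts in the CTRL tumors and 410, 436, 485, 610 and 575 in the D30 tumors. No D30 tumor overlapped a CTRL tumor, and the difference was near the threshold (0.82, 0.35 to 1.29, adjusted p = 0.0651 with limma, and 0.0354 without T4). Of the 10 limma fits with 1 tumor left out, only the fit without T4 called Msra, and adjusted p values reached 0.198. With limma the adjusted p was 0.149 with library-size scaling and 0.0488 at a minimum mean of 10. Msra is also on chromosome 14, in the bin from 60 to 70 Mb. Of the 72 genes there, Msra included, 45 were higher, with a median of 0.14. Limma called 2 of the 72 higher (2.78%) and 2 lower. Msrb1, which reduces the other stereoisomer of the same oxidized residue, had a log2 fold change of 0.07 (adjusted p = 0.922 with limma), or -0.15 with library-size scaling and -0.12 without T4. Srxn1, sulfiredoxin, which restores overoxidized peroxiredoxins and is a well-known NRF2 target, ranged from 1156 to 1563 in CTRL and from 868 to 1248 in D30 tumors (-0.33, -0.71 to 0.04, adjusted p = 0.345 with limma). Osgin1, an oxidative stress induced growth inhibitor, was 3757 in T5 and 1017 to 1322 in the other D30 tumors, against 872 to 1453 in CTRL tumors.

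**Figure D3:**
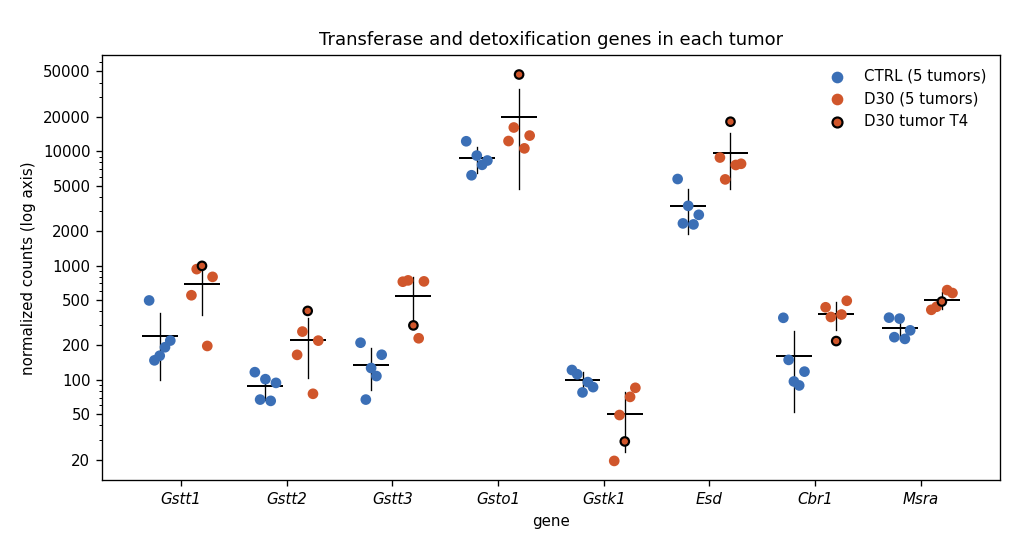
Normalized counts (log axis) of 5 GST genes and of Esd, Cbr1 and Msra in each CTRL (blue) and D30 (orange) tumor, with the mean and SD as black lines and tumor T4 outlined. Gstt3 and Msra are separated between groups, and T4 is the highest tumor for Gsto1 and Esd.

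The GST genes were dominated by 4 members. Per kilobase of exon, the mean levels over the 10 tumors were 11942 normalized counts for Gsta4, which conjugates the lipid peroxidation product 4-hydroxynonenal, 10344 for the microsomal Mgst3, 7084 for Gsto1, an omega-class thiol transferase, and 4117 for Gstp1, the pi-class enzyme often raised in carcinomas. Each of the other 15 lay at or below 639, the level of Gstm1. These 4 genes made up 84.8% to 94.1% of the summed level of the 19 GST genes in every tumor. The summed level was 20215 to 39125 normalized counts per kilobase across CTRL tumors and 26689 to 40666 in the D30 tumors other than T4, which overlapped, and 96525 in T4. Of the 19 genes 14 were higher with D30, and the median of their log2 fold changes was 0.45, or 0.18 without T4, and T4 was the highest tumor for 12 of the 19.

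**Figure D4:**
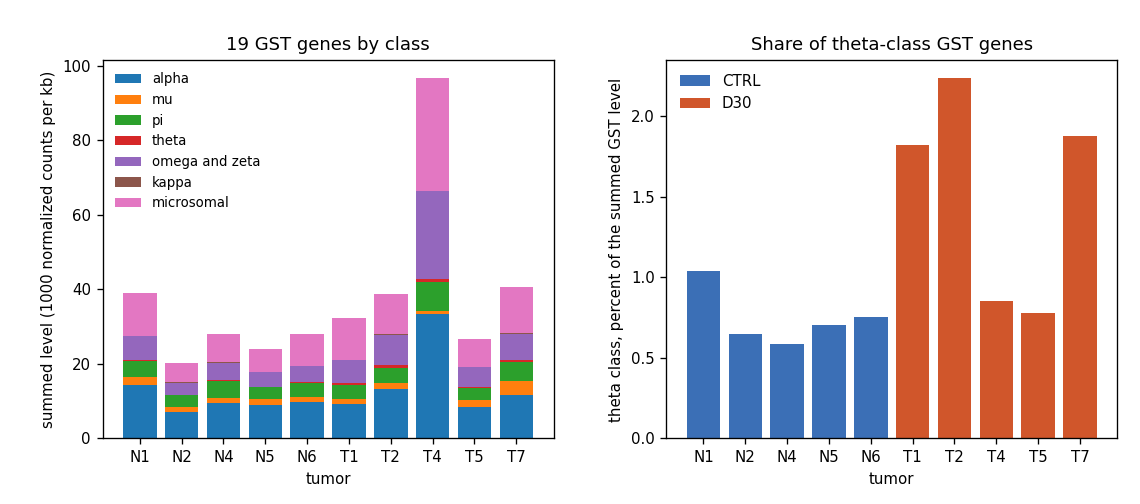
Left, level of the 19 GST genes summed by class in each tumor (1000 normalized counts per kilobase of exon), and right, share of the theta class in that sum (percent). T4 is the highest tumor on the left, and T1, T2 and T7 have the theta shares of 1.82%, 2.23% and 1.88% on the right.

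Theta-class genes, whose enzymes act on halogenated and other small electrophiles, held the GST genes with the highest log2 fold changes, Gstt3 and Gstt1. Gstt3 gave 211, 67.2, 127, 108 and 166 normalized counts in the CTRL tumors and 723, 742, 300, 231 and 728 in the D30 tumors. The groups did not overlap, and T1, T2 and T7 lay well above T4 and T5. Gstt3 (GRCm38, chr10:75774115-75781414) was 3.82-fold higher in D30 tumors (log2 fold change 1.93, SE 0.41, 1.06 to 2.81, adjusted p = 0.0231 with limma), and 2.11 on the log2 scale without T4 (adjusted p = 0.00765). The call was lost with library-size scaling and without N2, N4, N5, T1, T2 or T7, one at a time. A read-through gene model, Gm20441, covers 13.6% of its exon bases and was at 0 in every tumor. Gstt1 gave 496, 148, 163, 193 and 221 in the CTRL tumors and 550, 931, 995, 198 and 797 in the D30 tumors. T5 lay within the CTRL range and the other 4 D30 tumors above it (1.46, 0.49 to 2.42, adjusted p = 0.110 with limma, and 0.0142 without T5). Of the 10 limma fits with 1 tumor left out, the fit without T5 was the only 1 to call Gstt1, and adjusted p values reached 0.274. Gstt2 gave 117, 67.2, 101, 65.5 and 94.1 in the CTRL tumors and 166, 265, 401, 75.6 and 221 in the D30 tumors. The 5 D30 tumors had the same order as for Gstt1, with T5 alone within the CTRL range (1.17, 0.30 to 2.04, adjusted p = 0.152 with limma, and 0.0208 without T5). Gstt2 was likewise called in only 1 of these 10 fits, with adjusted p values of up to 0.332. T5 also had the highest sums of neutrophil and erythroid markers. The theta class made up 0.59% to 1.04% of the summed GST level among CTRL tumors and 0.78% to 2.23% among D30 tumors, with T4 (0.86%) and T5 (0.78%) in the CTRL range. These 3 genes lie within 63.3 kb on chromosome 10. Among the 21 expressed genes within 500 kb of Gstt3, which include Gstt1 and Gstt2, 14 were higher. Of these, Upb1 was called (2.85, adjusted p = 0.00921 with limma).

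Omega-class Gsto1 and zeta-class Gstz1 were both highest in T4. Gsto1 gave 12243, 6173, 9177, 7618 and 8309 normalized counts in the CTRL tumors and 12300, 16157, 46985, 10610 and 13730 in the D30 tumors. T5 lay below N1, the others above, and T4 was far above the rest (0.99, 0.22 to 1.76, adjusted p = 0.171 with limma, and 0.62 with 0.0814 without T4). Gstz1, an enzyme of tyrosine breakdown, was 939 to 1323 in CTRL tumors, 705 to 843 in the D30 tumors other than T4, and 1989 in T4. Its exons overlap Pomt2 on the opposite strand over 9.14% of their bases. Its log2 fold change was -0.14 with T4 and -0.41 without it (adjusted p = 0.140 with limma).

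None of the 3 microsomal genes passed the adjusted threshold of limma, and Mgst2 and Mgst3 were higher at an unadjusted p under 0.05. Mgst3 gave 11765, 5108, 7755, 6314 and 8723 normalized counts in the CTRL tumors and 11569, 11200, 30673, 7476 and 12894 in the D30 tumors, overlapping with N1 and T4 at the top of their groups (0.78, 0.05 to 1.51, adjusted p = 0.257 with limma). Mgst2, which can conjugate glutathione to leukotriene A4, gave 2452, 1395, 1279, 1342 and 1563 in the CTRL tumors and 2037, 2173, 6424, 1811 and 2159 in the D30 tumors. N1 again lay among the D30 tumors (0.72, 0.02 to 1.42, adjusted p = 0.278 with limma). Without T4 the log2 fold changes of Mgst3 and Mgst2 were 0.47 and 0.39. Mgst1 was 143 to 440 in CTRL tumors, 122 to 325 in the D30 tumors other than T4 and 1071 in T4 (0.04, -0.18 with library-size scaling, and -0.41 without T4).

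None of the 4 alpha-class genes passed the adjusted threshold of limma, and 1 was higher at an unadjusted p under 0.05, Gsta2. Gsta4 gave 17524, 8375, 11166, 10806 and 11684 normalized counts in the CTRL tumors and 11208, 15701, 40725, 9795 and 14198 in the D30 tumors. T4 was far above any other tumor, and the rest overlapped (0.45, -0.29 to 1.2, adjusted p = 0.541 with limma, and 0.11 without T4). Gsta2, the least abundant of the 41, gave 9.47, 10.1, 5.48, 11.5 and 2.57 in the CTRL tumors and 17.5, 10.3, 25.4, 30.9 and 17.0 in the D30 tumors. Only T2 fell within the CTRL range (1.31, 0.26 to 2.37, adjusted p = 0.185 with limma). Gsta1 shares 64.7% of its 100-base stretches with Gm3776 and 24.3% with Gsta2, so that the split of reads among these copies is uncertain. Gsta1 was 351 to 581 in CTRL and 373 to 1034 in D30 tumors (0.38, and 0.18 without T4), and Gm3776 was highest in T4 as well (923). Gsta3 was at 6.40 to 33.7 in CTRL and 6.39 to 52.0 in D30 tumors (0.12, -0.09 with library-size scaling, and -0.23 without T4).

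Pi-class genes are also near copies. Gstp2 shares 41.6% of its 100-base stretches with Gstp1, which was the more abundant of them. Gstp1 ranged from 4773 to 6866 normalized counts in CTRL and from 5066 to 11630 in D30 tumors, T4 being the highest (0.25, and 0.05 without T4, adjusted p = 0.633 and 0.884 with limma). Gstp2 gave 63.1, 31.8, 149, 77.0 and 81.3 in the CTRL tumors and 207, 129, 259, 65.2 and 225 in the D30 tumors. T1, T4 and T7 lay above all CTRL tumors, and T2 and T5 within their range (1.14, 0.16 to 2.12, adjusted p = 0.216 with limma).

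Among the mu-class genes, Gstm1, Gstm2 and Gstm4 were lowest of the D30 tumors in T4, while Gstm5, at 510 in T4, had its D30 median there. Gstm1 was 185 and Gstm2 345 in T4, below the D30 ranges of 725 to 1897 and 847 to 3246 in the other tumors, and T7 was the highest for both. Their log2 fold changes were -0.34 and 0.89 with T4 and 0.16 and 1.28 without it, with adjusted p = 0.775 and 0.0880 in limma without T4. For Gstm2, CTRL tumor N1 was at 1211, above every D30 tumor but T7. Its log2 fold change was 0.47 to 1.28 with each tumor left out in turn, with adjusted p values of 0.0880 to 0.646 in limma. Gstm4 (-0.14) and Gstm5 (-0.29) had adjusted p values of 0.791 and 0.613 with limma. The mitochondrial kappa-class gene Gstk1 gave 122, 112, 77.7, 95.6 and 86.4 normalized counts in the CTRL tumors and 19.5, 49.3, 28.9, 71.0 and 85.2 in the D30 tumors. T7 alone lay within the CTRL range, and Gstk1 had the lowest log2 fold change of the 41 (-1.12, -2.0 to -0.24, adjusted p = 0.176 with limma).

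**Figure D5:**
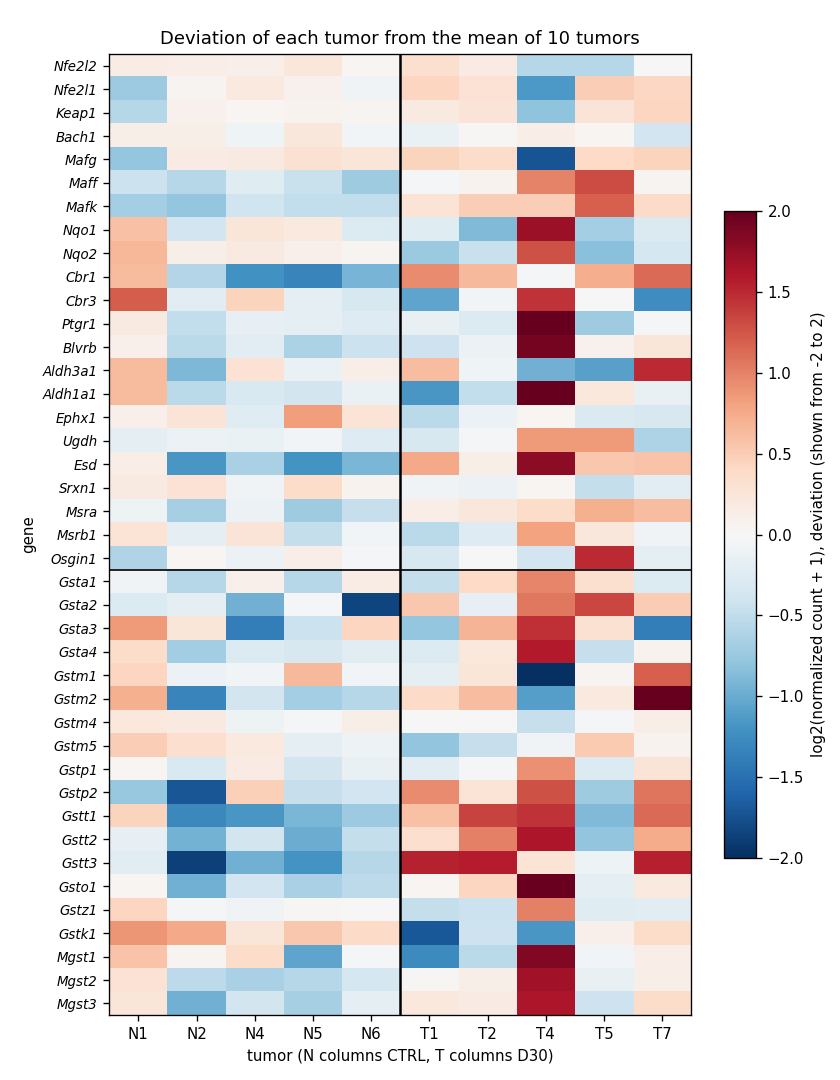
Deviation of log2(normalized count + 1) of each of the 41 genes (rows, GST genes below the line) from its mean over the 10 tumors, for CTRL (N) and D30 (T) columns, with colors ending at -2 and 2. T4 holds the highest value for 21 genes, and Mafk, Maff, Msra and Gstt3 are higher in all D30 columns than in all CTRL columns.

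Related pathway genes give the setting. Of 33 other genes tested, listed as NRF2 targets, 1 passed higher and 2 lower, with a median log2 fold change of 0.23. Without T4 there were 2 higher and 3 lower. The one called higher was Abcc3, which exports glutathione and glucuronide conjugates, with 492 to 849 normalized counts in CTRL and 1216 to 5640 in D30 tumors (2.11, adjusted p = 0.00581 with limma). The lower ones were Gclc, the catalytic subunit of the first enzyme of glutathione synthesis (-1.0, adjusted p = 0.0127 with limma), and Aox1, aldehyde oxidase (-1.2, adjusted p = 0.0215 with limma). Neither overlapped between groups. The called targets thus went in both directions. None of 13 genes of NRF2 degradation passed the adjusted threshold with limma, and 1 was higher at an unadjusted p under 0.05, Sqstm1 (p62), which binds KEAP1 (0.52, adjusted p = 0.253 with limma). None of 9 related factors and coactivators passed, and 1 was lower at an unadjusted p under 0.05, Chd6, a chromatin remodeler known to bind NRF2 (-0.94, adjusted p = 0.0797 with limma, and -0.73 with 0.0470 without T4). None of 12 further GST genes tested passed either, 4 being higher and 1 lower at an unadjusted p under 0.05. The one lower was Hpgds, the sigma-class prostaglandin D synthase (-1.35, adjusted p = 0.123 with limma), which was called without T4 (-1.66, adjusted p = 0.0195). None of 16 genes of the mercapturate pathway, which trims glutathione conjugates for excretion, passed, with 2 higher and 2 lower at an unadjusted p under 0.05, and without T4 limma called Ggt1 (1.93, adjusted p = 0.0358) and Ggt6 (1.51, adjusted p = 0.0492), both of the gamma-glutamyltransferase family, higher. Ggt1 was chosen after its values were seen.

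Among 8 xenobiotic receptor and AhR genes tested, 1 was called. Nr1i2, the pregnane X receptor, gave 196, 126, 119, 289 and 169 normalized counts in the CTRL tumors and 767, 1685, 256, 524 and 1330 in the D30 tumors (2.12, adjusted p = 0.0253 with limma). T1, T2 and T7, the tumors with the highest Gstt3, were also highest for Nr1i2, and T4 was the lowest D30 tumor for both Nr1i2 and Abcc3. Of 17 sulfo- and glucuronosyltransferase genes tested, Sult1d1 (3.29, adjusted p = 0.0271 with limma) and Sult1b1 (2.21, adjusted p = 0.0387) were called higher and Ugt2b5 (-3.36, adjusted p = 0.0315) lower. Sult1d1 was 18447 in T4 and 108 to 4764 in the other 9 tumors.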

How the data were processed

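Strand-specific libraries of tumor RNA were sequenced in pairs, trimmed with Trim Galore and aligned with STAR 2.7.0e. The methods name hg38, the submitters' processing notes GRCm39, and the table holds mouse Ensembl identifiers. RSEM is listed among the software of the study, but the counting settings are not given in the sources used here. The sample titles hold the word PDX, although the tumors are described as grown from the murine KPC line. For each gene and tumor the authors deposited a normalized signal, in the form of DESeq2 normalized counts (reads divided by a size factor). All values were whole multiples of 1 step per column (tolerance 0.1 read, 100% of values), so that reads were recovered. GENCODE M21 (GRCm38) named 94.1% of the genes. Columns were grouped by their letter, T being taken as the only other group.

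The main test was limma 3.58.1 (R 4.3.3) with a mean-variance trend on log2(normalized count + 1), over 24560 genes with a mean of at least 1 and with Benjamini-Hochberg adjustment, an adjusted p under 0.05 being a call. Alternatives were other pseudocounts, filters and scalings, edgeR 4.0.16 and DESeq2 1.42.0 on recovered reads, and leaving out each tumor. On simulated data with 200 changed genes over 24361 genes, limma recovered 27% at 2-fold and 92% at 4-fold. Of its 126 calls 5.56% were false, against 17.3% of 150 calls for DESeq2. The simulation set the spread of each gene by its level alone, changed only abundant genes and held no tumor like T4. Its rates may therefore differ from those in these tumors, for limma and for DESeq2.

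The members and lists were chosen with earlier results of these data known. Values in every tumor are given for members with a p under 0.05 or no overlap between groups, for Nfe2l2, Keap1, Bach1 and Nqo1, for the GST with the highest level per kilobase and for the least abundant member. Nqo2 was added after its values were seen. Of the other lists, genes with an adjusted p under 0.05 and at most 3 further per list were named. Members are described by counts and medians, with no test of the list. Sequences are from RefSeq (GRCm38.p6). A further allele of the cell line is not reported here.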

Additional observations from a re-analysis of the deposited data

Results flagged for a closer look

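In 17 of 82 groups (41 genes in CTRL and in D30), 1 tumor stood far from the other 4 by Dixon's criterion, which chance gives in about 1 in 20 groups. Of the 17, 11 were T4, 4 were N1 and 2 were T5.

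T4 was far above the other D30 tumors for Nqo1 (179 normalized counts, next 45.2), Nqo2 (2398, next 778), Ptgr1 (5209, next 1241), Blvrb (4084, next 1290), Gsto1 (46985, next 16157), Gstz1 (1989, next 843) and Mgst2 (6424, next 2173). It was far below them for Nfe2l1 (2996, next 8070), Keap1 (1441, next 2863), Mafg (1161, next 4976) and Gstm4 (130, next 176). In the CTRL group, N1 was far below for Keap1 (1692, next 2590) and Mafg (2253, next 4313) and far above for Nqo2 (1572, next 1122) and Gstz1 (1323, next 1004). T5 was far above for Mafk (4648, next 2859) and Osgin1 (3757, next 1322). N1 and T4 departed in the same direction for Keap1, Mafg, Nqo2 and Gstz1. Short-exon genes deviated from the mean of all tumors by a median of 0.08 in N1, 0.56 in T4 and 0.15 in T7 on the log2 scale, and T7 stood apart for no gene. The part of exon length in these departures was not tested.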

How the results depend on the processing

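No paired analysis was possible because the columns carry other numbers than the labelled replicates. Main values were 678 genes called and 3 of the 41. DESeq2 called 1982 genes and 9 of the 41. With each tumor left out in turn, 279 to 1573 genes and 1 to 6 of the 41 were called, the lowest without N2 and the highest without T4. Of all calls 50.7% were higher in D30 tumors, against 27.7% with library-size scaling, where the median of all genes moved from -0.06 to -0.27 and that of the 41 from 0.25 to 0.03, and against 64.6% with edgeR. Mafk kept its call in every fit.

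Log2 fold changes that turned sign were, with library-size scaling, Nfe2l1 -0.034, Keap1 -0.089, Msrb1 -0.15, Gsta3 -0.094 and Mgst1 -0.18. With upper-quartile scaling they were Mafg 0.0058 and Aldh3a1 0.035. With edgeR they were Mafg 0.11, Nqo1 0.19 and Aldh3a1 0.25, and with DESeq2 Mafg 0.10, Nqo1 0.17 and Aldh3a1 0.24. With 1 tumor left out, the ranges that crossed 0 were -0.25 to 0.61 for Aldh1a1, -0.38 to 0.26 for Aldh3a1, -0.23 to 0.48 for Gsta3, -0.68 to 0.16 for Gstm1, -0.24 to 0.39 for Mafg, -0.41 to 0.37 for Mgst1, -0.12 to 0.21 for Msrb1, -0.60 to 0.048 for Nqo1, -0.10 to 0.37 for Osgin1 and -0.11 to 0.58 for Ptgr1. The cause was not tested. None of these genes passed the test in any of these fits.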
